A study of Homo sapiens with 3 samples.

Results

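ETS1 binding was examined at 10 genes of the FAT cadherin and Hippo-YAP system in SCC25 cells, a long-established human line derived from a tongue tumour of the squamous type. The genes were FAT1 (ENSG00000083857), FAT2 (ENSG00000086570), YAP1 (ENSG00000137693), WWTR1 (ENSG00000018408), TEAD1 (ENSG00000187079), TEAD4 (ENSG00000197905), CCN1 (ENSG00000142871), CCN2 (ENSG00000118523), AJUBA (ENSG00000129474) and LATS2 (ENSG00000150457), taken by name from a fixed list and found in the GENCODE release 44 annotation on hg19. They are 10 of the 20162 nuclear protein-coding genes of that annotation. Chromatin of these cells, to which the labels assign no treatment, was immunoprecipitated with anti-ETS1 antibodies: C20 was used for 2 samples and 501A for 1. The peaks shared by the 3 samples according to IDR, a procedure that compares the ranks of peaks between replicates, were deposited as 1 pooled list of positions. This list carries no read count, score or value per sample, so no spread between replicates and no test between conditions was available. A peak belonged to a gene locus if its midpoint fell in the gene body or within 100 kb of it. By this rule the 10 loci held 68 of the 26961 nuclear peaks, and no peak fell in more than 1 of the loci.

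The Hippo pathway is a kinase cascade that limits tissue growth. Its last kinases, LATS1 and LATS2, phosphorylate the coactivators YAP (from YAP1) and TAZ (from WWTR1) and thereby keep them out of the nucleus. In the nucleus both coactivators act through the TEAD factors, which bind DNA at the motif GGAATG, often at enhancers where AP-1 also binds. FAT cadherins are very large cell surface proteins that feed into this cascade, and FAT1 is a recurrent target of mutation in head and neck squamous cell carcinoma. ETS factors such as ETS1 recognise a GGAA core, which the TEAD motif also contains.

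The peaks were unevenly spread over the genes. FAT2 had 14 peaks, AJUBA 13, TEAD4 9, YAP1 and TEAD1 8 each, WWTR1 6, and CCN1 and LATS2 5 each, while FAT1 and CCN2 had none. AJUBA and FAT2 thus held 27 of the 68 peaks. At least 1 peak was present in 8 of the 10 loci, against 87.5% of all protein-coding genes (17646 of 20162, 95% Wilson confidence interval 87.1 to 88.0%, counting error only). The median was 7 peaks per locus for these genes and 4 for all protein-coding genes (quartiles 2 and 8). The loci also differed in length, and the median locus spanned 288 kb for these genes and 227 kb for all. Per 100 kb the medians were 2.09 and 1.60 peaks. The count of FAT2 was at percentile 93.6 of all protein-coding genes and that of AJUBA at percentile 91.7. TEAD4 followed at 79.4, YAP1 and TEAD1 at 74.8, WWTR1 at 64.0, and CCN1 and LATS2 at 56.9. FAT1 and CCN2 shared percentile 6.24 with the 12.5% of genes that had no peak. Per 100 kb of locus the order changed, with AJUBA first (6.15 peaks, percentile 93.5), then FAT2 (4.87, percentile 87.55) and TEAD4 (3.20, percentile 73.2). YAP1 (2.48) was at percentile 65.3, CCN1 (2.45) at 64.8 and LATS2 (1.73) at 52.0. TEAD1 (1.70) and WWTR1 (1.43), the longest loci, lay near the median of all genes.

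**Figure D1:**
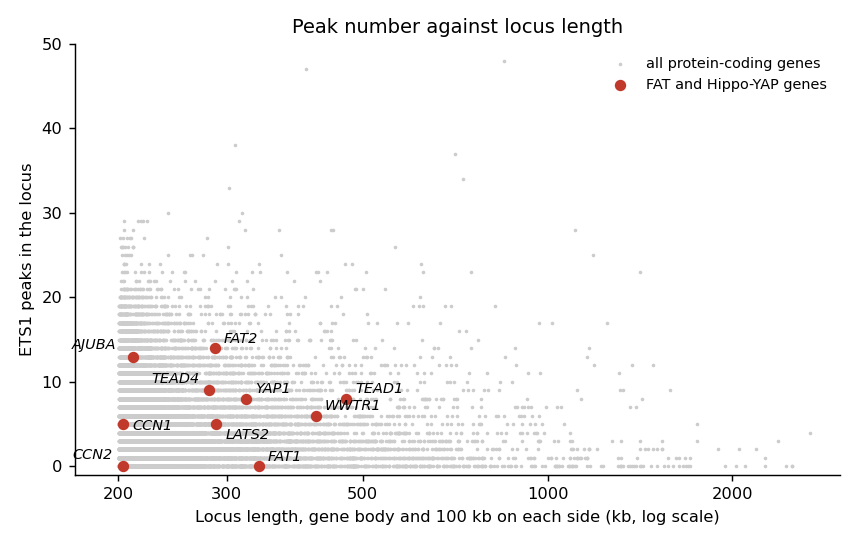
Number of ETS1 peaks (y axis) against locus length in kb on a log scale (x axis) for all 20162 protein-coding genes (grey) and the 10 genes described here (red). FAT2 with 14 and AJUBA with 13 peaks stand highest of the 10, at percentiles 93.6 and 91.7 of all genes, and FAT1 and CCN2 lie at 0.

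Of the 68 peaks, 33 had their midpoint within 500 bp of an annotated transcription start site (TSS) of any gene (48.5%, Wilson interval 37.1 to 60.2%), against 43.3% of all nuclear peaks. A further 21 were intronic (30.9%, interval 21.2 to 42.6%, against 31.4%), 12 were intergenic (17.6%, interval 10.4 to 28.4%, against 20.6%) and 2 were exonic. The share of each class among all peaks lay inside the interval of these loci. These intervals cover counting error only and treat the peaks as independent, although AJUBA and FAT2 held 27 of the 68. Only 8 of the 33 TSS peaks were at a TSS of the gene itself, and the other 25 were at TSSs of neighbouring genes. AJUBA stands in a gene-dense region and accounted for 9 of those 25. The peaks inside the gene bodies numbered 25, of which 16 had an intronic midpoint more than 500 bp from any TSS.

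**Figure D2:**
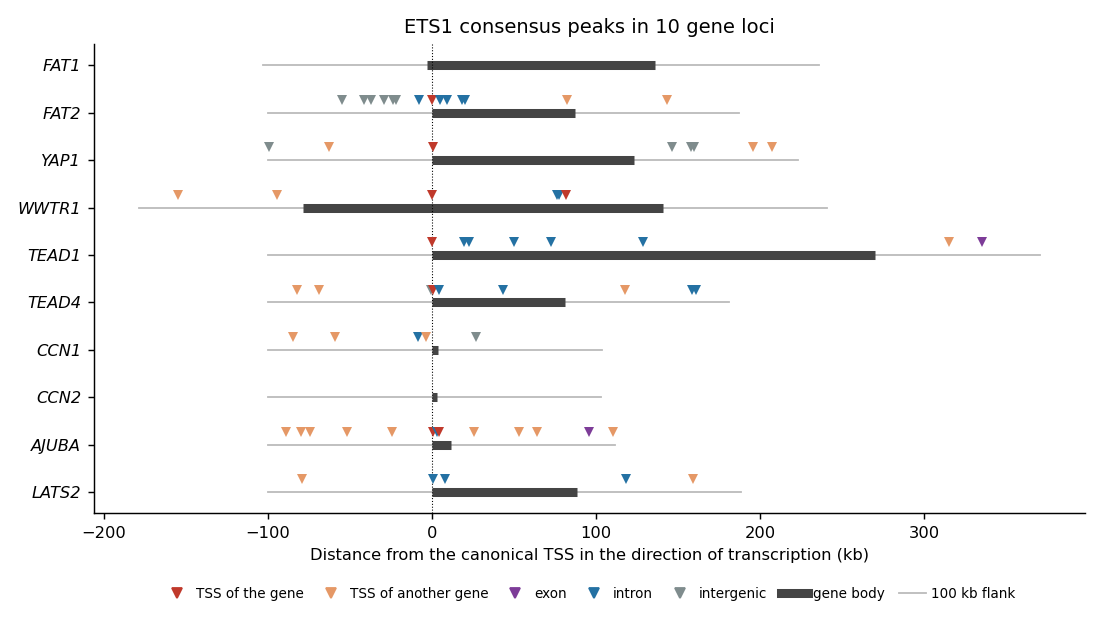
Position of each ETS1 peak (triangles, coloured by class) relative to the canonical TSS of its gene, in kb along the direction of transcription, with the gene body as a thick bar and the 100 kb flanks as thin lines. The peaks of FAT2 gather on both sides of the TSS, those in the body of TEAD1 lie in its first part with 2 more beyond its end, and FAT1 and CCN2 have none.

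At their own promoters, 6 of the 10 genes had a peak midpoint within 500 bp of a TSS, namely FAT2, YAP1, WWTR1, TEAD1, TEAD4 and AJUBA. This compares with 53.1% of all protein-coding genes (10705 of 20162, Wilson interval 52.4 to 53.8%), so that a count of 6 was near the background. LATS2 was added if the peak had only to cover a TSS, which gave 7 of 10 genes against 56.0% of all. A peak midpoint in the gene body was found in the same 7 genes, against 53.4% of all. FAT1, CCN1 and CCN2 had neither. The canonical TSS itself lay within 500 bp of a midpoint only at FAT2, WWTR1 and TEAD1, because the wide promoter peaks of YAP1, TEAD4 and AJUBA were centred further into the gene. The 53.1% above is for any TSS and is not the share to set beside this count. The distance at YAP1, 526 bp and just over the limit, was at percentile 46.8 of the distances over all protein-coding genes.

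**Figure D3:**
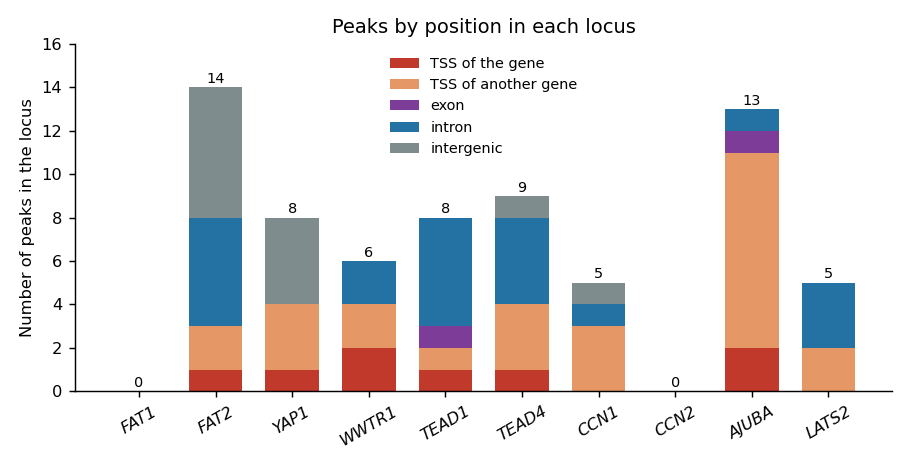
Number of peaks in each locus (bar height, from 0), divided by the position of the peak midpoint. Of the 13 peaks of AJUBA, 9 were at TSSs of other genes, whereas 11 of the 14 peaks of FAT2 were intronic or intergenic.

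FAT2 encodes a FAT cadherin of squamous epithelia. The gene (chromosome 5, minus strand, 150883653 to 150970892) carried 6 peaks in its body, 7 upstream and 1 downstream. A peak of 772 bp (150970494 to 150971265) was centred 13 bp from the canonical TSS. Intron 1 held 4 further peaks, centred 5.08, 9.22, 18.45 and 20.1 kb into the gene. The last was the widest peak of the locus, at 1637 bp (150949977 to 150951613), wider than 88.0% of all intronic peaks. The upstream side held 6 intergenic peaks between 21.7 and 55.1 kb from the TSS, with widths of 552 to 1429 bp, and an intronic peak of a long noncoding RNA at 7.82 kb. The remaining pair lay at TSSs of other transcripts, within intron 22 of FAT2 and at SLC36A1. Thus 11 of the 14 peaks of FAT2 were more than 1500 bp from any TSS. The 200 bases at the centre of the widest intronic peak are shown because they hold an AP-1 word between ETS cores. In this and the following sequences, read 5′ to 3′ on the strand of the gene, capitals mark the ETS core GGAA or its complement TTCC, the TEAD word GGAATG or CATTCC, and the AP-1 word TGACTCA or TGAGTCA.
FAT2 intron 1 (chr5:150950695-150950894, minus strand): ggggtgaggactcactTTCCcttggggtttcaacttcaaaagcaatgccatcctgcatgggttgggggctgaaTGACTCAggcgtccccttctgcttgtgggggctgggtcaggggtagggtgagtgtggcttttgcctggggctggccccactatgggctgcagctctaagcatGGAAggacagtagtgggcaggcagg

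FAT1, the other FAT cadherin examined (chromosome 4, minus strand, 187508948 to 187647876), has 11 annotated TSSs. None of them was in a peak, and the 339 kb of the locus held no peak. The nearest peak (186494712 to 186495423) had its midpoint 1014 kb beyond the 3′ end of the gene. This was the last peak of the chromosome, and the 4.66 Mb from there to the chromosome end held the canonical TSSs of 17 protein-coding genes, of which 0 had a TSS peak. Only 35 of the 26937 distances between neighbouring peaks were longer, although this stretch ends at the chromosome end and not at a peak. The stretch includes 110000 undetermined bases. The deposited list gives no input or ChIP coverage, so that whether reads covered this stretch, and whether it is present in these cells, was not tested. Neighbouring genes of 1 stretch are not independent of each other.

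YAP1 (chromosome 11, plus strand, 101981178 to 102104155) carried a single peak in its body, over its promoter. This peak spanned 2418 bp (101980496 to 101982913), covered 3 of the 7 annotated TSSs and was wider than 91.7% of all TSS peaks. Its midpoint lay in exon 1, 526 bp from the canonical TSS. No other midpoint fell in the 123 kb of the gene. Beyond the gene, 4 intergenic peaks of 408 to 1011 bp were found, 1 at 99.1 kb upstream and 3 between 146 and 160 kb downstream of the canonical TSS. The flanks also held peaks at TSSs of CFAP300, of a processed pseudogene and of BIRC3, the last an inhibitor of apoptosis gene.
The sequence of 2 of the intergenic peaks is given because TEAD and AP-1 words stood together in them. They were singled out after the values had been seen, with an intergenic TEAD4 peak below. The words started 28 bases apart in the upstream peak and 15 bases apart in the downstream peak.
YAP1 upstream peak (chr11:101881904-101882203, plus strand): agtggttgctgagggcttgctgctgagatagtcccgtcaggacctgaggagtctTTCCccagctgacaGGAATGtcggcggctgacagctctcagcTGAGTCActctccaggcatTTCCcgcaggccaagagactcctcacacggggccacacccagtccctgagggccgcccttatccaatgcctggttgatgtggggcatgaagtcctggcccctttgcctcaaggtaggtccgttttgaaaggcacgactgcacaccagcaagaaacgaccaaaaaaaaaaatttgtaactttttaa
YAP1 downstream peak (chr11:102126999-102127298, plus strand): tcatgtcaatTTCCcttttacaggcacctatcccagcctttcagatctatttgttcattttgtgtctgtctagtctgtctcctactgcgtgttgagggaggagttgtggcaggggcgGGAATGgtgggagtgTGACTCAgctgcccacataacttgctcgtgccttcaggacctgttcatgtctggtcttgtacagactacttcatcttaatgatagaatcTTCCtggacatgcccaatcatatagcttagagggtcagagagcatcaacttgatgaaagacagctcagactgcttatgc

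WWTR1, the gene of the coactivator TAZ (chromosome 3, minus strand, 149235022 to 149454501), had 2 peaks at its own TSSs. The wider, of 2493 bp (149374504 to 149376996), was centred 62 bp from the canonical TSS and covered 4 TSSs, and it also lay at the start of the antisense transcript WWTR1-AS1. The second, of 952 bp (149293391 to 149294342), was centred 173 bp from the TSS of a shorter transcript in intron 2, 81.9 kb into the gene. Intron 2 held 2 more peaks, of 666 and 366 bp, at 76.0 and 77.6 kb. The 3 peaks of intron 2 therefore stood close together, with none elsewhere in the gene away from the promoter. The other 2 peaks of the locus were at the TSSs of COMMD2 and RNF13. An intronic peak and the peak at the internal TSS are shown for their AP-1 and TEAD words, and the first has 2 AP-1 words within 200 bases.
WWTR1 intron 2 (chr3:149299697-149299896, minus strand): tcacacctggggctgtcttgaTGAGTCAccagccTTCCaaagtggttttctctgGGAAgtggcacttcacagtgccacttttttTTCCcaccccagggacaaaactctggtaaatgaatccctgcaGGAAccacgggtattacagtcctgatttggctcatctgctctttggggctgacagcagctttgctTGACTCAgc
WWTR1 internal TSS (chr3:149293766-149293855, minus strand): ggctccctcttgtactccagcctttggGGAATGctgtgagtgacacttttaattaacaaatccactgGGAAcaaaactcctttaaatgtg

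TEAD1 (chromosome 11, plus strand, 12695968 to 12966284) and TEAD4 (chromosome 12, plus strand, 3068496 to 3149842) encode DNA-binding partners of YAP and TAZ. At TEAD1 a peak of 1725 bp (12695279 to 12697003) covered 2 TSSs and was centred 173 bp from the canonical TSS. It was followed by 5 intronic peaks at 19.6, 22.7, 50.2, 72.4 and 128 kb, with widths of 394 to 1092 bp. The first 4 lay in intron 2 and the last in intron 3. No peak midpoint fell between 128 kb and the end of the 270 kb gene. The downstream flank held a peak at LINC00958 and an exonic peak of 2914 bp at RASSF10, the widest of all 68. The RASSF10 peak covered a TSS of that gene, with the midpoint 589 bp away, just outside the limit of 500 bp. Upstream of TEAD1 there was no peak within 100 kb, and the next was 243 kb away. The 2 intronic windows with an AP-1 word are shown.
TEAD1 intron 2, 19.6 kb (chr11:12715476-12715675, plus strand): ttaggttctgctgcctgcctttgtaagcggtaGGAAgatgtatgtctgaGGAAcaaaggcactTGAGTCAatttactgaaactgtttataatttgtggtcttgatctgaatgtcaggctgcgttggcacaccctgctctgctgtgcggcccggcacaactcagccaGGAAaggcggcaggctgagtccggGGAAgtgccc
TEAD1 intron 2, 50.2 kb (chr11:12746018-12746217, plus strand): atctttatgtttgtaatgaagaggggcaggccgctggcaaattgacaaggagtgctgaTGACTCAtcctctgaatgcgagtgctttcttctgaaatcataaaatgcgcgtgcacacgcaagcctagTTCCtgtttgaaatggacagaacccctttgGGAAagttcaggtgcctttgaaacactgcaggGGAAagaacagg

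At TEAD4 a peak of 1803 bp (3068483 to 3070285) covered 7 of the 8 annotated TSSs. Its midpoint was 821 bp downstream of the canonical TSS. A separate peak of 907 bp (3067506 to 3068412) was centred 604 bp upstream of that TSS and was classed as intergenic. Intronic peaks lay 4.52 kb (1197 bp wide) and 43.5 kb (763 bp wide) into the gene. The flanks held 3 TSS peaks, at FOXM1 with RHNO1, at TULP3 and at TSPAN9, and 2 intronic peaks in TSPAN9. No peak of the TEAD4 locus was narrower than 763 bp, whereas the lowest widths in the other occupied loci were between 329 and 596 bp. The upstream peak is shown as the only window of the 68, beside the 2 of YAP1, with both the TEAD and the AP-1 word, here 179 bases apart, and it holds 7 GGAA cores. The 3 windows with both words were 4.41% of the 68 (Wilson interval 1.51 to 12.2%), against 3.64% of all nuclear peaks, so that their number was near the background.
TEAD4 upstream peak (chr12:3067809-3068108, plus strand): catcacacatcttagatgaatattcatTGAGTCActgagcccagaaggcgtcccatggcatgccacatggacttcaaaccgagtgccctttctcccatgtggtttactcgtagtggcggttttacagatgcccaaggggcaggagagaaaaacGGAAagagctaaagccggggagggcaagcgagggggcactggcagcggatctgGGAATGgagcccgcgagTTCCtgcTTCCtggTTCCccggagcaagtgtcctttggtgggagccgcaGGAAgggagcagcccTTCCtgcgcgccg

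CCN1 and CCN2 encode secreted matricellular proteins and are the most widely used readouts of YAP and TAZ activity. Neither had a peak in its body or at its TSS. CCN1 (chromosome 1, plus strand, 86046444 to 86050272) had 5 peaks in its locus, 4 of them upstream. The nearest, of 1241 bp (86041925 to 86043165), was centred 3.90 kb upstream of the canonical TSS and 4 bp from a TSS of a long noncoding RNA (ENSG00000282057) inside the neighbouring gene DDAH1. Another 3 upstream peaks, 8.75, 59.2 and 85.0 kb away, also lay inside DDAH1, the farther 2 of them at other TSSs of the same noncoding RNA. Their widths were 413, 631 and 329 bp. The only intergenic peak (86072542 to 86073536, 995 bp) was 26.6 kb downstream and held 2 TEAD words in 300 bp. CCN2 (chromosome 6, minus strand, 132269316 to 132272512) had no peak within 100 kb. The nearest peaks were at the promoters of MED23, 323 kb from the TSS of CCN2, and STX7, 562 kb away on the other side. The interval between them, 885 kb, was longer than 98.1% of the distances between neighbouring peaks.

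AJUBA encodes a LIM domain protein that holds back the LATS kinases (chromosome 14, minus strand, 23440386 to 23451760). Its 11.4 kb body held 3 peaks. The promoter peak of 2750 bp (23449683 to 23452432) was centred 703 bp from the canonical TSS in exon 1, and was wider than 94.8% of all TSS peaks. It was followed by an intronic peak of 1412 bp at 3005 bp from the TSS and by a peak of 946 bp at an internal TSS, at 4.48 kb. The flanks held 10 peaks, 5 on each side, of which 9 were at TSSs of other genes, among them PRMT5, an arginine methyltransferase, and PSMB5, a proteasome subunit. The promoter peak cannot be assigned to AJUBA alone, since an overlapping gene that the annotation lists as protein-coding (ENSG00000259132) also starts within 500 bp of the midpoint. The window at the internal TSS is shown for its TEAD word.
AJUBA internal TSS (chr14:23447181-23447380, minus strand): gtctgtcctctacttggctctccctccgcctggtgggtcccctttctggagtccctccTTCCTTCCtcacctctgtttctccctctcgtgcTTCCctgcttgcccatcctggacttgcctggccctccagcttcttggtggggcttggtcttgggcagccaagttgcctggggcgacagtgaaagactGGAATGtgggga

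LATS2 encodes a kinase that phosphorylates YAP and TAZ and is itself induced by them (chromosome 13, minus strand, 21547175 to 21635725). A peak of 1845 bp (21634230 to 21636074) covered its canonical TSS, with the midpoint 573 bp downstream in intron 1, just outside the limit of 500 bp. A second, of 415 bp, lay in intron 1, 8135 bp from the TSS. The flanks held peaks at the TSSs of SAP18 and XPO4 and an intronic peak in a transcribed pseudogene (HNRNPA1P30). The sum of peak widths in the locus was 5423 bp for LATS2, 3609 bp for CCN1, 6522 bp for WWTR1, 6789 bp for YAP1 and 8397 bp for TEAD1. It was 11761 bp for FAT2, 12427 bp for TEAD4 and 18178 bp for AJUBA. By this measure TEAD4 passed FAT2, whose peaks were more numerous and narrower. The sums include flank peaks that lie at other genes, so the order does not describe the genes alone. Peaks at TSSs of other genes numbered 9 at AJUBA, 3 at TEAD4 and 2 at FAT2, and the TEAD4 sum also holds intronic peaks of TSPAN9.

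**Figure D4:**
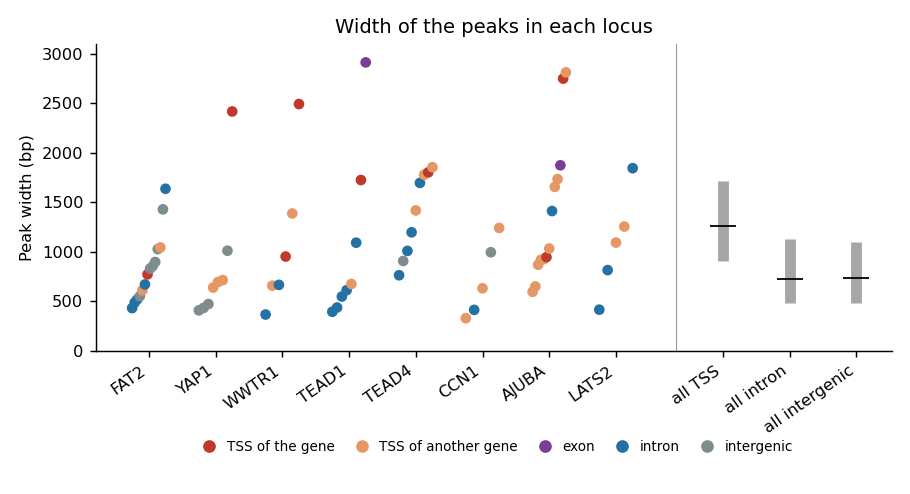
Width in bp of each peak of the 8 occupied loci (points, coloured by class), beside the median (line) and quartiles (grey bar) of all TSS, intronic and intergenic peaks. The peaks over the canonical TSSs of YAP1, WWTR1 and AJUBA are at least 2418 bp wide, above the upper quartile of all TSS peaks at 1719 bp. Those over the canonical TSSs of TEAD1, TEAD4 and LATS2, at 1725, 1803 and 1845 bp, are also above it. The peaks at the internal TSSs of WWTR1 and AJUBA are 952 and 946 bp wide and the promoter peak of FAT2 772 bp.

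The median width of the 68 peaks was 912.5 bp (quartiles 626 and 1414 bp), against 969 bp (609 and 1462 bp) for all nuclear peaks. The 8 peaks at the genes' own TSSs had a median of 1764 bp and ranged from 772 to 2750 bp. All 33 TSS peaks of the loci, at TSSs of any gene, had a median of 1033 bp, against 1262 bp for all nuclear TSS peaks. The 5 widest of the 8 were those of AJUBA, WWTR1, YAP1, TEAD4 and TEAD1. The 21 intronic peaks had a median of 666 bp and the 12 intergenic ones of 876 bp, against 724 and 735 bp for all peaks of these classes. Position in the deposited list, whose order is not explained in the sources used here, placed 2 FAT2 intron 1 peaks at lines 352 and 499 and 2 AJUBA body peaks at lines 857 and 1105. These 4 were the earliest of the 68.

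Promoter sequence composition was compared with occupancy. In 250 bases on each side of the canonical TSS, the median GC content was 67.3% for the protein-coding genes with a TSS peak and 59.5% for those without. The median ratio of observed to expected CpG was 0.845 and 0.479. FAT2 had a peak with a GC content of 59.7% and a CpG ratio of 0.271, below both medians for CpG. FAT1, within the stretch that held no peak at all, had none with 76.8% and 1.05, and CCN1 (69.1%, 1.0) and CCN2 (63.9%, 0.913) likewise had none with a CpG ratio above the median of genes with a peak. Of the other genes with a TSS peak, YAP1, TEAD1 and TEAD4 had ratios of 1.03, 1.04 and 1.06, while WWTR1 had 0.756 and AJUBA 0.687. LATS2 had 0.846 and counts here among the genes without a TSS peak, although a peak covered its canonical TSS. Composition was taken at the canonical TSS, but a TSS peak could be at any TSS. At YAP1, TEAD4 and AJUBA no midpoint lay within 500 bp of the canonical TSS.

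The motif words were counted on both strands in windows of 300 bp centred on the midpoints. The ETS core GGAA was present in 63 of the 68 windows (92.6%, Wilson interval 83.9 to 96.8%) and in 96.3% of all nuclear peaks. The longer word AGGAAG was in 34 windows (50.0%, interval 38.4 to 61.6%) against 41.2% of all peaks. Within the loci it was in 11 of the 14 windows of FAT2 and 6 of the 9 of TEAD4, but in 2 of the 8 of TEAD1 and 1 of the 5 of CCN1. The word CGGAAG, typical of ETS sites at promoters, was in 7 windows (10.3%, interval 5.08 to 19.8%) against 18.4%. Its longer form CCGGAAGT was in 1 window, at the TSS of COMMD2 in the WWTR1 locus, against 3.11% of all peaks. The TEAD word GGAATG, which always includes a GGAA core, was in 13 windows (19.1%, interval 11.5 to 30.0%) against 16.8%. The AP-1 word TGACTCA was in 10 (14.7%, interval 8.19 to 25%) against 16.7%, and the RUNX word TGTGGT was in 10 against 17.3%. For each of these 7 words the share over all peaks lay inside the interval of the 68 windows.

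By class, AGGAAG was in 19 of the 32 peaks over 1500 bp from any TSS (59.4%, interval 42.3 to 74.5%), against 47.6% of all such peaks. TGACTCA was in 7 of these 32 (21.9%, interval 11 to 38.8%) against 27%, and in 2 of the 33 TSS peaks (6.06%) against 5.32%. GGAATG was in 6 of the 32 (18.8%) against 22.1%, and in 6 of the 33 TSS peaks (18.2%, interval 8.61 to 34.4%) against 10.6%. CGGAAG was in 5 of the 33 TSS peaks (15.2%, interval 6.65 to 30.9%) against 28%. TGTGGT was in 9 of the 32 distal windows (28.1%) against 23.9% and in none of the 33 at TSSs, where a count of 0 has an upper Wilson limit of 10.4%, against 9.97% of all TSS peaks. A match marks letters and not a bound site, and how often these words occur outside peaks was not tested.

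**Figure D5:**
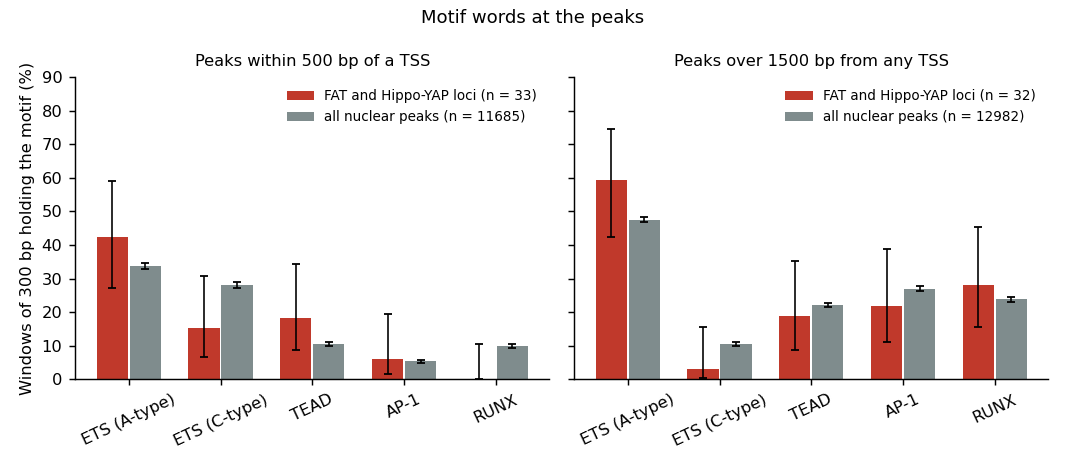
Percent of 300 bp windows that hold each motif word, with 95% Wilson intervals, for peaks within 500 bp of a TSS (left) and over 1500 bp from any TSS (right). Red bars are the peaks of the 10 loci (33 and 32) and grey bars all nuclear peaks of the same class. The A-type and C-type ETS words are AGGAAG and CGGAAG, and each grey value plotted lies inside the red interval beside it.

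Other genes of the pathway were counted in the same way. Over 5 lists with 58 genes, 39 had a TSS peak (67.2%), against the 53.1% of all protein-coding genes. Of the 48 genes outside the 10 described here, 33 did (68.8%). LATS2, AMOTL2, PTPN14 and FJX1 stood in more than 1 list. They were counted once in these totals but in each of their lists below. The kinase core had a TSS peak at 6 of 7 genes, with LATS2 the exception by its midpoint. Upstream regulators had one at 14 of 16 genes, the exceptions being AMOT, whose locus held no peak, and WTIP. Of the TEAD, VGLL, YAP1 and WWTR1 genes, 8 of 10 had a TSS peak and VGLL1 and VGLL3 did not. Among 22 genes commonly used as YAP and TAZ targets, 12 had a TSS peak (54.5%) and 10 did not. The 10 include LATS2, FJX1, FOXF2 and ARHGEF17, at which a peak did cover a TSS. Their midpoints nearest the canonical TSS were 0.573 to 0.625 kb away, beyond the limit of 500 bp. By coverage, every gene of this list except CCN1, CCN2, ANKRD1, CCDC80, TGFB2 and RBMS3 had a TSS in a peak. The share over all protein-coding genes by coverage was 56.0%, which is not to be set beside the 54.5% by midpoint. The loci with most peaks in that list were ARHGEF17 with 19, ASAP1 with 17, AMOTL2 with 16 and F3, the gene of tissue factor, with 13. The list of FAT and Dachsous genes, which also held FJX1, had a TSS peak at 1 of 7 genes, FAT2 (14.3%). At FJX1, as said above, a peak covered a TSS without a midpoint within 500 bp. FAT1 lies in the stretch without any peak described earlier. FAT1, FAT3 and FAT4 had no peak in their loci, while DCHS1 had 5, DCHS2 3 and FJX1 3. The median over this list was 3 peaks per locus, against 4 over all protein-coding genes, 5 in the YAP and TAZ targets, 6 in the kinase core, 7 in the list of TEAD, VGLL and coactivator genes and 9 in the upstream regulators. Genes with little or no expression in SCC25 could not be separated from the others here, as no expression values were analysed.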

How the data were processed

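ETS1 ChIP-Seq of SCC25 cells comprised 3 samples (2 with the C20 antibody, 1 with 501A). The authors aligned reads to hg19 (Bowtie 1.1.1), retained those that mapped to a single place, and ran MACS2 with merged input as control, followed by IDR. The deposited file holds start and end positions only, pooled over the samples. Depth per sample is not in it, so the precision of a single peak is unknown.

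Starts, 0-based in the file, were converted to 1-based hg19 positions. GENCODE 44 mapped to GRCh37 gave genes, TSSs and exons, and no nuclear peak passed a chromosome end of this sequence. The 9 mitochondrial peaks were left out. Peak classes were assigned in the order TSS (500 bp), exon, intron, intergenic. Shares carry 95% Wilson intervals, which cover counting error only and treat peaks or windows of the same locus as independent. No test was run, because nothing in the list varies between samples. The genes, motifs and pathway lists were chosen with earlier results of these data known. All 10 genes were named, with the peaks at or nearest their TSSs and the widest in the body and between genes. Pathway genes were named where a list had at most 3 with or without a TSS peak, otherwise the 4 with most peaks. The remaining peaks, the genes without a TSS peak in the FAT and Dachsous list, and the targets named for a covered or uncovered TSS were named after their values were seen. Printed windows hold at most 30 bases of annotated UTR. The code was checked on planted peaks. Python 3.11.15, numpy 2.4.6, pandas 2.3.3 and pysam 0.24.0 were used.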

Additional observations from a re-analysis of the deposited data

How the results depend on the processing

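Most results kept within the spread set for them (a Wilson interval, or 1.5 times for counts and medians), and those below did not. The number of peaks fell from 68 to 45 with 50 kb flanks, to 29 with 10 kb, to 25 in gene bodies alone and to 38 among the first 13485 peaks of the list, since less sequence or fewer peaks entered. Genes with a TSS peak numbered 3 with the canonical transcript alone, and the 53.1% of all protein-coding genes, taken over any TSS, is not the like share for this. In gene bodies alone the TSS share was 36%, the intron share 64.0% and the exon and intergenic shares 0%, by construction for the last. The motif shares moved with the window, as did those of all nuclear peaks. With windows of 200 bp, GGAA was in 83.8% (all peaks 89.9%) and AGGAAG in 38.2% (30.6%). With 600 bp these were 100% (99.7%) and 70.6% (62.2%), with CGGAAG 22.1% (28.9%), GGAATG 35.3% (29.6%) and TGTGGT 32.4% (29.9%). In gene bodies AGGAAG was in 36% and CCGGAAGT in 0%. Over 1500 bp from any TSS, CGGAAG was in 3.12% (all such peaks 10.4%), CCGGAAGT in 0% (1.09%) and TGTGGT in 28.1% (23.9%). No paired analysis was possible because the list is pooled over the samples, and for the same reason no sample could be left out.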
